A study of Mus musculus with 18 samples.

Results

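Genes that restrain growth factor signalling through the kinase ERK, and the ETS factors that answer to it, were examined in mice lacking repeat B of *Xist*. The 10 genes were the phosphatases *Dusp4*, *Dusp5* and *Dusp6*, the Sprouty genes *Spry1*, *Spry2* and *Spry4*, the Spred genes *Spred1* and *Spred2*, and the ETS factor genes *Etv4* and *Etv5*. They were taken by symbol from 21959 genes listed for primary mouse embryonic fibroblasts (MEFs) and 51826 listed for liver. The set was chosen by the MEF counts, in which *Dusp4* was about 10-fold lower in RepB-/- than in wild-type (WT) cells. The MEF values of all 10 genes are therefore given as a description, from which no test is read, while the choice did not use the liver libraries.

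Growth factors bind receptor tyrosine kinases on the cell surface, which pass the signal through adaptors, RAS, RAF and MEK to ERK. ERK in turn raises transcription of its own inhibitors, so that the RNA of these genes is widely used as a readout of pathway output. In fibroblasts the pathway carries the response to serum, platelet-derived growth factor and fibroblast growth factors, and in liver the response to epidermal growth factor and hepatocyte growth factor.

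RNA-seq was analysed in 3 RepB-/- and 3 WT libraries of each tissue. RepB-/- mice carry a whole-body deletion of *Xist* repeat B made with CRISPR/Cas9 in zygotes, the study's mice were of the ICR stock, and no other allele or treatment is named for either genotype. The MEFs were primary cultures grown in serum, and their labels give both tail as tissue and a primary MEF line, while ages and the number of embryos or animals per library are not given in the sources used here. Where separate animals are not stated, p-values measure only the spread between these libraries, which may be technical. Library totals were 11540344 to 20587556 counts in MEFs and 37682201 to 51542709 in liver.

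Marker genes matched the labelled tissues, and 3 of the liver libraries stood apart in other ways. Hepatocyte markers summed to at most 2.49 CPM (counts scaled to a common library size with TMM factors) in every MEF library, and fibroblast markers summed to between 20430 and 35310. In liver, hepatocyte markers summed to between 112100 and 197900 CPM. The liver libraries labelled replicate 1 stood apart in both genotypes, with 4753 and 5970 CPM of fetal liver markers such as *Afp* and *H19* against 4.50 to 20.2 CPM in the other 4. *Lin28b*, also on the fetal list, was at 0 CPM in every liver library. Hepatocyte markers summed to 112100 and 153100 CPM in the replicate 1 libraries and 122700 to 197900 CPM in the other 4. The age of the replicate 1 livers is thus not settled by these markers. The library labelled RepB-/- liver replicate 2 had 4 *Xist* counts and 4342 counts of Y-linked genes, where the other 5 liver libraries had 14494 to 26345 *Xist* counts and at most 1 Y-linked count. These are the counts of a male sample, whereas the study writes RepB-/- for females. The library was kept in the main liver fit, so the liver contrast mixes sexes. MEF libraries had 0 to 4 Y-linked counts. A count over the whole *Xist* gene does not check the repeat B deletion. The MEF counts used here held no gene under the symbol *Xist*, so it could not be checked in MEFs.

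The promoters of *Dusp5* and *Dusp6* are shown because these phosphatase genes behaved differently in MEFs, *Dusp5* being lower in every RepB-/- library and *Dusp6* overlapping between genotypes. The RefSeq table used here (GRCm38.p6) held windows for 7 of the 10 genes, all but *Dusp4*, *Spry4* and *Etv4*. Each sequence below runs 5′ to 3′ on the plus strand from base 150 to base 37 before the RefSeq start, at chr19:53528995-53529108 for *Dusp5* and chr10:99263081-99263194 for *Dusp6*. Capitals mark 2 adjoining CArG boxes in *Dusp5*, the element bound by serum response factor, and 1 ETS motif in *Dusp6*, CGGAAG read on the other strand.
Dusp5: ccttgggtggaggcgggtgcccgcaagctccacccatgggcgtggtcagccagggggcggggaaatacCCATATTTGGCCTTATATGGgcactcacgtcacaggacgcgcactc
Dusp6: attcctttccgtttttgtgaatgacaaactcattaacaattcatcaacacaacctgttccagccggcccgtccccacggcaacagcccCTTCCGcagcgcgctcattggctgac

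The CArG boxes of *Dusp5* began 82 and 72 bases before the start, and the letters of the ETS motif of *Dusp6* began 62 bases before it. Over the full 250 bases before each start, 1 of 8 windows of these genes held a CArG box, against 1.47% of all 32851 windows in the table, and this motif was searched for after the *Dusp5* sequence had been seen. CGGAAG lay on either strand in 3 of the 8 windows, those of *Dusp6*, *Spred1* and *Spred2*, against 13.6% of all windows. The AP-1 motif TGANTCA lay in 0 of the 8 and in 6.75% of all windows, the cyclic AMP element TGACGTCA in 0 and in 1.55%, and the SP1 motif GGGCGG in 5 and in 32.7%. The half-site TGACG, which TGACGTCA contains, lay in 2 of the 8 and in 17.8% of all windows. CpG dinucleotides were at 0.613 to 1.00 of the number expected from base composition in the 8 windows, against a median of 0.373 over all windows. These are letter matches in short windows and say nothing of binding.

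In MEFs all 10 genes had a lower mean in RepB-/- than in WT, and the differences ran from a log2 fold change of -3.39 for *Dusp4* to -0.15 for *Dusp6*. The difference was at least 2-fold for 4 genes, *Dusp4*, *Dusp5*, *Spry4* and *Etv4*, so that each protein family held a member with a large and a member with a small difference except the Spreds, where both were small. The RepB-/- libraries all lay below the WT libraries for 8 genes, where 25.8% of the 13306 genes tested did so. By edgeR's quasi-likelihood test 8 genes were past an adjusted p of 0.05 in this direction, where 19.7% of all genes were, and nothing is read from these counts since this contrast chose the set. The median log2 fold change was -0.46 over the 10 genes and 0.0003 over all genes tested. *Dusp4* stood 101st of 13306 from the lowest log2 fold change, *Dusp5*, *Spry4* and *Etv4* within the lowest 7.52%, and *Dusp6* at 34.5%.

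**Figure D1:**
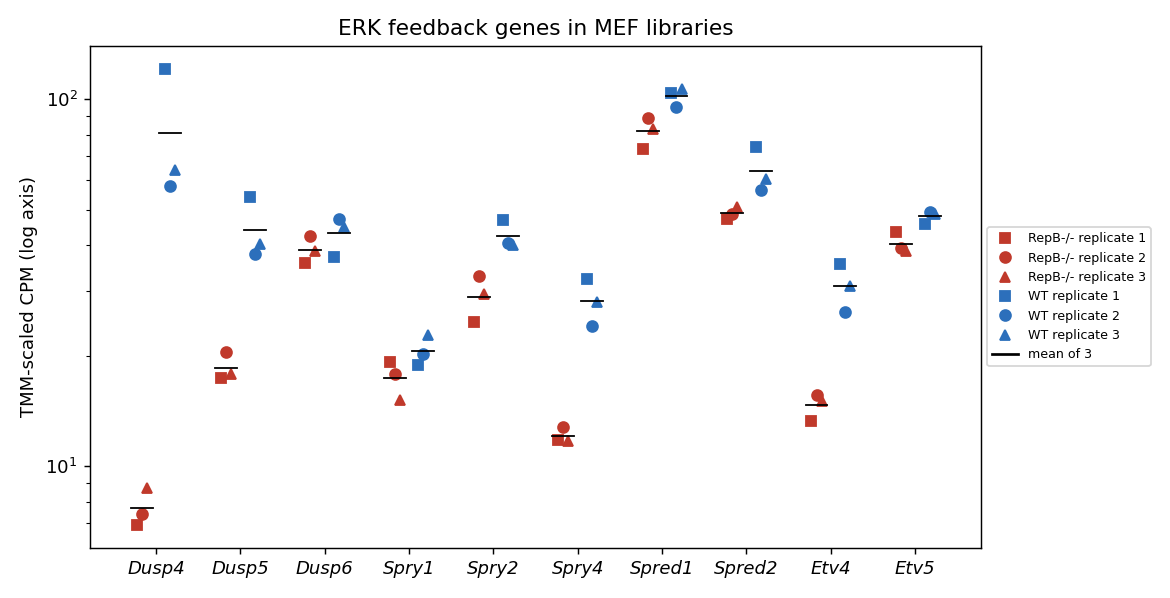
Expression of the 10 genes in each MEF library as TMM-scaled CPM on a log axis, RepB-/- in red and WT in blue, with marker shape giving the replicate and a black line the mean of 3. The genotypes are separated for 8 genes, most widely for *Dusp4*, and overlap for *Dusp6* and *Spry1*.

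DUSP4, DUSP5 and DUSP6 are phosphatases that remove the activating phosphates of MAP kinases, DUSP4 and DUSP5 in the nucleus and DUSP6 in the cytoplasm. *Dusp4* (ENSMUSG00000031530, chr8:35274451-35287048 in GRCm39) was at 6.93, 7.44 and 8.72 CPM in the RepB-/- libraries and at 120.8, 57.9 and 64.1 CPM in the WT libraries. Every WT library was thus several-fold above every RepB-/- library, and WT replicate 1 stood well above the other WT libraries. The fitted log2 fold change was -3.39 ± 0.24 (SE, n = 3 per genotype), a 10.5-fold lower level, and -2.99 without WT replicate 1. *Dusp5* was at 17.4, 20.5 and 17.8 CPM in RepB-/- and 54.2, 37.7 and 40.3 CPM in WT. Its genotypes did not overlap, and the log2 fold change was -1.24 ± 0.13, or 2.37-fold lower. *Dusp6* was at 35.7, 42.3 and 38.5 CPM in RepB-/- and 37.2, 47.2 and 44.9 CPM in WT. The lowest WT library lay among the RepB-/- libraries, with a log2 fold change of -0.15 ± 0.10.

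Sprouty proteins are membrane-associated inhibitors that act between receptor and RAF. *Spry4* was at 11.8, 12.8 and 11.8 CPM in RepB-/- and 32.3, 24.1 and 28.04 CPM in WT. The RepB-/- libraries were close together and all below the lowest WT library, at a log2 fold change of -1.21 ± 0.12, or 2.32-fold lower. *Spry2* was at 24.7, 32.9 and 29.4 CPM in RepB-/- and 46.9, 40.6 and 39.9 CPM in WT. It was also separated by genotype, with a smaller log2 fold change of -0.55 ± 0.11. *Spry1* was at 19.3, 17.8 and 15.2 CPM in RepB-/- and 18.8, 20.3 and 22.8 CPM in WT. The highest RepB-/- library lay above the lowest WT library, and the log2 fold change was -0.25 ± 0.12.

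Spred proteins carry the Sprouty domain and hold neurofibromin at the membrane, where it turns RAS off. *Spred1* was at 73.2, 88.5 and 83.0 CPM in RepB-/- and 103.6, 94.9 and 106.1 CPM in WT. *Spred2* was at 47.2, 48.6 and 50.9 CPM in RepB-/- and 73.8, 56.5 and 60.7 CPM in WT. Neither overlapped between genotypes, and the log2 fold changes were small, -0.32 ± 0.08 for *Spred1* and -0.38 ± 0.10 for *Spred2*.

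ETV4 and ETV5 are closely related ETS transcription factors whose genes are targets of fibroblast growth factor signalling. *Etv4* was at 13.3, 15.7 and 15.1 CPM in RepB-/- and 35.5, 26.3 and 31.0 CPM in WT. All RepB-/- libraries lay well below the lowest WT library, at a log2 fold change of -1.07 ± 0.12, or 2.10-fold lower. *Etv5* was at 43.3, 39.2 and 38.5 CPM in RepB-/- and 45.7, 49.4 and 48.5 CPM in WT. Its genotypes were separated by a narrow gap, with a log2 fold change of -0.25 ± 0.08.

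The order of the genes by level per transcript length changed with genotype. By the deposited FPKM (fragments scaled by gene length and library depth), *Dusp4* was the highest of the 10 genes in each WT MEF library, at 31.0 ± 14.5 (mean ± SD, n = 3). It was the 9th of 10 in each RepB-/- library, at 2.7 ± 0.32. *Spry2* was 2nd in each WT library at 21.2 ± 2.68 FPKM and 1st in each RepB-/- library at 13.4 ± 1.97. *Dusp5* went from 3rd in each WT library, 18.6 ± 4.45 FPKM, to 6th in each RepB-/- library, 7.21 ± 0.69. In WT, neighbours in the order overlapped in their ranges from *Dusp4* through *Spry2*, *Dusp5*, *Spred1* (15.6), *Spred2* (14.4) and *Dusp6* (14.3 FPKM), though genes further apart in the order, such as *Spry2* and *Dusp6*, did not overlap. *Etv5* (12.1) and *Etv4* (10.4) followed and overlapped, and *Spry1* (7.37) and *Spry4* (6.18 FPKM) were lowest and overlapped. In RepB-/- MEFs the first 5, *Spry2*, *Dusp6* (11.9), *Spred1* (11.6), *Spred2* (10.2) and *Etv5* (9.45 FPKM), overlapped in turn. Below them *Dusp5*, *Spry1* (5.76) and *Etv4* (4.55 FPKM) were each separated from the next, and *Dusp4* overlapped *Spry4* (2.45 FPKM).

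Other properties of the MEF libraries moved with genotype. WT replicate 1, the library with the fewest counts, was the highest of all 6 libraries for 6 of the 10 genes, including *Dusp4*, *Dusp5*, *Spry4* and *Etv4*. Fibroblast markers summed to 29330 to 35310 CPM in RepB-/- against 20430 to 25280 CPM in WT, with 5 of 10 tested markers higher and 1 lower. Macrophage and leukocyte markers summed to 117.3 to 151.1 CPM against 50.0 to 65.0 CPM, mostly *Lyz2*, with 3 of 5 tested higher and 1 lower. Beside *Lyz2*, *Adgre1* (3.13 against 0.97 CPM) and *Csf1r* (15.8 against 10.4 CPM) were higher, and *Cd68* (7.72 against 12.0 CPM) was lower. *Cd3e* was at or near 0, and *Ptprc* was at 1.21 and 0.96 CPM. Endothelial markers summed to 20.3 to 25.5 CPM against 35.4 to 41.5 CPM, with 5 of 6 lower and 1 higher, *Pecam1* among the former at 3.49 against 11.3 CPM. Epithelial and keratinocyte markers summed to 11.1 to 15.7 CPM against 30.0 to 39.3 CPM, with 2 of 6 tested lower and 1 higher. *Krt19* was at 5.01 CPM in RepB-/- and 27.7 CPM in WT, while *Krt14* went the other way, at 5.08 and 1.58 CPM. *Epcam* was at 0.49 CPM in RepB-/- and 1.02 CPM in WT. Skeletal muscle markers summed to 65.2 to 72.1 CPM against 130.5 to 199.7 CPM, mostly *Acta1*. Of 5 tested muscle markers only *Acta1* was called lower and 0 were called higher. Erythroid markers summed to at most 1.07 CPM in any MEF library. The part of these differences in the values of the 10 genes was not tested, and in bulk RNA fewer cells of a type and less RNA per cell cannot be told apart.

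The rest of the pathway in MEFs was described from 5 lists of 85 genes. Of these genes 80 were tested and 35 differed past an adjusted p of 0.05, where 39.1% of all genes tested did. The lists were chosen with earlier results of these data known, and the list of inhibitors holds paralogs of genes picked by this contrast. The counts and adjusted p-values of all 5 lists in MEFs are therefore a description, from which no test is read. Of 14 tested paralogs and other feedback inhibitors, 8 fell and 0 rose, where 19.7% of all genes fell, and the median log2 fold change was -0.39. *Spred3*, the remaining Spred gene, fell from 84.5, 57.2 and 59.7 CPM in WT to 33.1, 32.96 and 34.6 CPM in RepB-/- (log2 fold change -0.995 ± 0.12, adjusted p = 5.7e-05). *Lrig1*, whose product promotes degradation of epidermal growth factor receptors, fell from 93.4, 97.6 and 96.4 CPM to 47.1, 59.0 and 59.6 CPM (-0.80 ± 0.09, adjusted p = 2.7e-05). Both genes had all RepB-/- libraries below all WT libraries. *Dusp1*, an immediate early phosphatase of MAP kinases, was at 358.4, 393.3 and 365.3 CPM in RepB-/- and 512.0, 394.4 and 405.4 CPM in WT, and did not pass (adjusted p = 0.068).

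Ligands and receptors of the pathway were called in both directions, in shares near those of all genes. Of 21 tested growth factor genes 5 fell and 5 rose, where 19.7% and 19.4% of all genes did, with a median log2 fold change of -0.14. *Areg* and *Btc*, ligands of the epidermal growth factor receptor, fell from means of 3.17 and 2.59 CPM to 0.65 and 0.55 CPM (log2 fold changes -2.25 ± 0.47 and -2.24 ± 0.38, edgeR adjusted p = 0.0021 and 0.00049). *Kitl*, the ligand of KIT, rose from 35.3 ± 4.09 to 63.6 ± 2.93 CPM (SD, n = 3), a log2 fold change of 0.85 ± 0.09 (edgeR adjusted p = 1.9e-05). *Fgf7*, a fibroblast growth factor that acts on epithelium, rose from 77.7 ± 14.6 to 122.8 ± 9.95 CPM (0.66 ± 0.11, edgeR adjusted p = 0.00057).

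Of 15 tested receptor tyrosine kinases 4 fell and 4 rose, where again 19.7% and 19.4% of all genes did, with a median log2 fold change of 0.06. *Erbb3*, a receptor of neuregulins, and *Kdr*, the vascular endothelial growth factor receptor, fell from means of 4.70 and 6.35 CPM to 1.66 and 2.48 CPM (edgeR adjusted p = 0.0021 and 0.0017). *Kdr* moved with the endothelial markers given above. *Egfr*, the epidermal growth factor receptor, named here after its values were seen, fell from 110.3 ± 11.9 to 59.0 ± 2.28 CPM (SD). Its log2 fold change was -0.90 ± 0.09 (edgeR adjusted p = 6.0e-06). *Pdgfra*, the alpha receptor of platelet-derived growth factor and one of the fibroblast markers, rose from 99.2, 99.2 and 108.2 CPM to 217.6, 201.1 and 181.8 CPM (log2 fold change 0.97 ± 0.08, adjusted p = 1.7e-06). *Fgfr2* rose from 35.1 ± 0.75 to 52.0 ± 12.9 CPM (edgeR adjusted p = 0.0059).

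The genes between receptor and ERK differed least. Of 20 tested, 2 fell and 1 rose, where 19.7% and 19.4% of all genes did, and the median log2 fold change was 0.0040. The adaptor gene *Shc1* fell from 457.9 ± 29.6 to 313.9 ± 4.07 CPM (log2 fold change -0.54 ± 0.07, edgeR adjusted p = 8.3e-05). *Hras* fell from 99.1 ± 4.96 to 83.7 ± 2.01 CPM, and *Map2k1*, which codes for MEK1, rose from 148.9 ± 0.55 to 167.9 ± 3.56 CPM. Both of these changes were small, with log2 fold changes of -0.24 and 0.17 and edgeR adjusted p = 0.015 and 0.045.

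Of 10 tested genes counted as other outputs of ERK, 5 fell and 1 rose, where 19.7% and 19.4% of all genes did, with a median log2 fold change of -0.23. *Phlda1* fell from 23.4, 11.5 and 11.7 CPM to 4.03, 5.22 and 2.74 CPM (log2 fold change -1.94 ± 0.28, adjusted p = 0.00016). *Epha2*, an ephrin receptor gene, fell from 175.7 ± 25.2 to 108.3 ± 7.63 CPM (-0.70 ± 0.09, edgeR adjusted p = 0.00011). The early response gene *Fos* went the other way, from 50.8, 62.8 and 65.9 CPM to 136.7, 141.6 and 90.1 CPM (1.03 ± 0.14, adjusted p = 0.00012). The early response genes *Egr1* and *Junb*, picked here for contrast after their values were seen, fell by 0.68 and 0.53 on the log2 scale (edgeR adjusted p = 0.00091 and 0.0048).

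**Figure D2:**
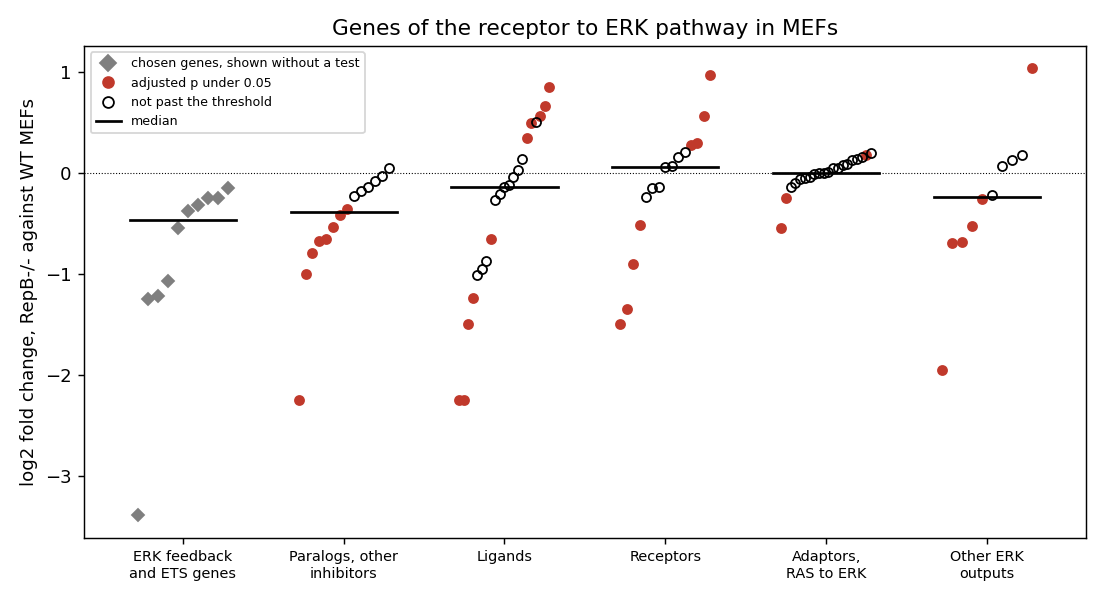
Log2 fold change of RepB-/- against WT MEFs for each tested gene of the pathway, in columns by role, with the 10 chosen genes as grey diamonds shown without a test, other genes in red where the adjusted p was under 0.05 and open otherwise, and a bar at each column's median. Paralogs and other inhibitors lie mostly below 0, ligands and receptors on both sides, and the genes from adaptors to ERK close to 0. The lists of the other genes were chosen with earlier results of these data known, so the colours are a description.

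The large difference of *Dusp4* was not seen in the genes around it. Of 11 genes within 1 Mb of *Dusp4* on chromosome 8, 9 were tested and 1 passed, where 39.1% of all genes tested did. The gene that passed was *Rbpms*, whose gene body lies 854.6 kb away, with means of 44.2 CPM in WT and 35.7 CPM in RepB-/- (log2 fold change -0.31 ± 0.09, edgeR adjusted p = 0.015). This call was lost without RepB-/- MEF replicate 3 or WT MEF replicate 3. *Tnks*, the closest gene at 6.57 kb, was at 116.6 CPM in WT and 118.5 CPM in RepB-/- (log2 fold change 0.02 ± 0.07, edgeR adjusted p = 0.82).

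The profile over the 6 MEF libraries most like that of *Dusp4*, by Euclidean distance of log2 CPM after each gene's WT mean was removed, was that of *Tmem95* (distance 0.32). *Tmem95* was at 1.68, 1.76 and 2.33 CPM in RepB-/- and 35.9, 15.1 and 19.3 CPM in WT. *Hspa1a*, a heat shock gene at a distance of 0.41, was at 4.08, 3.98 and 5.47 CPM in RepB-/- and 92.1, 34.6 and 38.2 CPM in WT, and its near-identical copy *Hspa1b* leaves its counts uncertain. In both genes, as in *Dusp4*, WT replicate 1 was by far the highest library. *Gpr61* (0.35), *Gm11639* (0.49) and *Sall3* (0.55) made up the 5, all at or near 0 in RepB-/- and with WT means of only 1.19, 1.36 and 1.12 CPM. Their fitted log2 fold changes, -7.35, -5.80 and -7.28, were far larger than the -3.39 of *Dusp4*. The log2 CPM of the distance held a prior count of 2, which shrinks differences near 0, so the likeness of these genes to *Dusp4* rests on that setting.

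In liver, where the choice of genes played no part, none of the 9 tested genes passed an adjusted p of 0.05 by edgeR, where 0.0373% of all 16080 genes did, 6 in all against 502 at an unadjusted p under 0.05. The spread between liver libraries was wide, with a biological coefficient of variation of 51.2% against 9.06% in MEFs. Log2 fold changes were below 0 for 6 genes and above 0 for 3, with a median of -0.08 over the 9 and 0.01 over all genes tested. The same count was 0 with DESeq2, which called 0.299% of all genes, with the replicate block, which called 0.0498%, and under the other 12 of 14 alternatives.

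**Figure D3:**
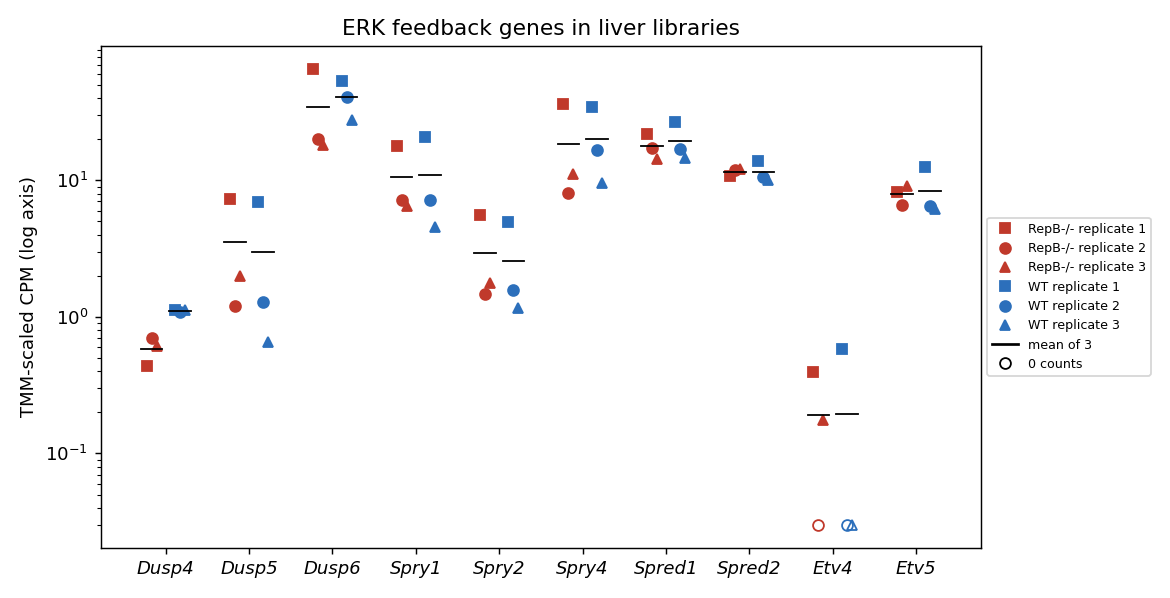
Expression of the 10 genes in each liver library as TMM-scaled CPM on a log axis, drawn as for MEFs, with open symbols at the foot for libraries with 0 counts. Replicate 1 of both genotypes is the highest for 6 of the 9 tested genes, a count not set against all genes, and *Dusp4* is the only one of the 9 without overlap between genotypes.

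*Dusp4* had few counts in liver and was the only one of the 9 whose genotypes did not overlap. It had 22, 35 and 21 counts in RepB-/- and 50, 42 and 53 counts in WT, or 0.43, 0.70 and 0.61 CPM against 1.12, 1.09 and 1.12 CPM. All RepB-/- libraries lower than all WT libraries was the case for 4.66% of genes tested. The log2 fold change was -0.93 ± 0.42 (95% interval -1.92 to 0.07), with an unadjusted p of 0.063 and an adjusted p of 1.00 by edgeR. It lay between -1.08 and -0.75 under all 14 alternatives, at -0.75 without both replicate 1 libraries and -1.08 without RepB-/- replicate 2, and the lowest adjusted p was 0.61. The difference in liver was thus not called, and its interval did not reach the log2 fold change of -3.39 fitted in MEFs, although no test of the difference between tissues was made since the MEF value chose the gene.

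The replicate 1 libraries, which had the high sums of fetal liver markers, were higher for much of the set. Replicate 1 was the highest library of both genotypes for 6 of the 9 tested genes, and at least 2 times the mean of replicates 2 and 3 in both for 4, *Dusp5*, *Spry1*, *Spry2* and *Spry4*. The share of all tested genes that did so was not computed. Over all tested genes the replicate 1 libraries deviated together (correlation 0.71) and opposite to replicates 2 and 3 of the other genotype (-0.49 to -0.55). No trait of the set is therefore read from these counts. *Dusp5* was at 7.35, 1.21 and 1.98 CPM in RepB-/- and 6.98, 1.29 and 0.65 CPM in WT, so that replicate 1 was 4.599 and 7.17 times the mean of the other libraries. *Spry2* was at 5.59, 1.47 and 1.78 CPM in RepB-/- and 4.93, 1.58 and 1.16 CPM in WT, or 3.44 and 3.60 times. In replicate 1 the genotypes were close for both genes, and in replicate 3 RepB-/- was the higher. Fibroblast markers summed to 3688 and 3828 CPM in these libraries against 1616 to 2177 CPM in the other 4, endothelial markers to 199.7 and 224.0 against 100.4 to 153.0 CPM, and macrophage and leukocyte markers to 319.7 and 320.7 against 167.8 to 215.7 CPM, so the stage of the tissue and its cell makeup cannot be told apart.

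*Spry1* was at 17.9, 7.13 and 6.53 CPM in RepB-/- and 20.9, 7.16 and 4.58 CPM in WT, and *Spry4* at 36.2, 8.10 and 11.2 CPM and 34.3, 16.7 and 9.51 CPM. *Dusp6*, the highest of the 10 in every liver library by FPKM, was at 65.6, 20.2 and 18.0 CPM in RepB-/- and 53.7, 41.0 and 27.7 CPM in WT. Replicates 2 and 3 of *Dusp6* were thus lower in RepB-/- and replicate 1 higher, and its log2 fold change was -0.24 ± 0.54 (edgeR adjusted p = 1.00) and -0.45 ± 0.28 with the replicate block (adjusted p = 0.82). For *Dusp5*, *Spry1*, *Spry2* and *Spry4* the log2 fold changes lay between -0.12 and 0.24, with standard errors of 0.66 to 1.03 and edgeR adjusted p = 1.00. The 95% interval for *Dusp5*, -2.23 to 2.71, held both 0 and its MEF value of -1.24.

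*Spred2*, *Spred1* and *Etv5* had the smallest standard errors of the 9 genes tested in liver, 0.21 to 0.34. *Spred2* was at 10.7, 11.9 and 12.1 CPM in RepB-/- and 13.9, 10.5 and 10.03 CPM in WT, a log2 fold change of 0.01 (95% interval -0.50 to 0.52). *Spred1* was at 22.0, 17.1 and 14.3 CPM in RepB-/- and 26.7, 16.8 and 14.6 CPM in WT (-0.12, interval -0.83 to 0.58). *Etv5* was at 8.20, 6.59 and 9.04 CPM in RepB-/- and 12.4, 6.54 and 6.17 CPM in WT (-0.08, interval -0.89 to 0.74). All overlapped between genotypes with edgeR adjusted p = 1.00. *Etv4* was not tested, with 20, 0 and 6 counts in RepB-/- and 26, 0 and 0 in WT, a level at which its count of 0 in a library allows up to 3 counts.

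**Figure D4:**
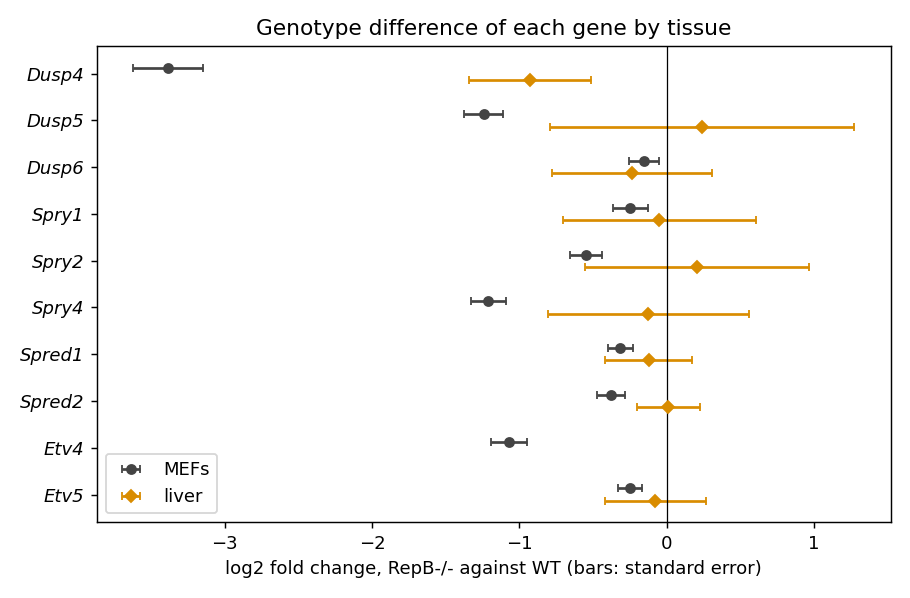
Log2 fold change of RepB-/- against WT for each gene in MEFs (circles) and liver (diamonds), with bars for the standard error and no liver value for *Etv4*. MEF values run from -3.39 to -0.15 with short bars, and liver values lie between -0.93 and 0.24 with bars that cross 0 except for *Dusp4*.

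By FPKM the liver order was led by *Dusp6* in every library, at 14.8 ± 6.02 in WT and 11.6 ± 10.3 in RepB-/- (SD, n = 3). *Spry4* (4.36), *Spry1* (4.28), *Spred2* (3.42), *Spred1* (3.25), *Etv5* (2.14), *Dusp5* (1.23) and *Spry2* (1.23 FPKM) followed in WT, each overlapping the next. *Dusp4* (0.38 FPKM) came next, below the range of *Spry2*. *Etv4* (0.19 FPKM) was last by its mean, and its highest WT library (0.57 FPKM) put its range over those of both *Dusp4* and *Spry2*. *Dusp4*, first in WT MEFs, was thus 8th to 10th of 10 in every liver library. The tables were made separately, so levels are not compared between tissues.

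Of the 5 pathway lists, 0 genes passed in liver by edgeR or with the replicate block, and 1 passed with DESeq2, which was *Dusp1*, named here after its values were seen. It was at 85.3, 59.0 and 66.4 CPM in RepB-/- and 27.2, 23.3 and 16.5 CPM in WT, so all RepB-/- libraries lay above all WT libraries, as for 3.38% of genes tested. Its log2 fold change was 1.65 ± 0.26 (edgeR adjusted p = 0.46, and 0.17 with the replicate block). Erythroid markers in these livers summed to 1088 to 3628 CPM in RepB-/- and 210.9 to 1307 CPM in WT, and their part in any value of liver was not tested.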

How the data were processed

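Counts of 12 RNA-seq libraries were used, 3 RepB-/- and 3 WT of each of MEFs and liver, with B in the titles read as RepB-/- and W as WT. The other 6 libraries, of brain, were not analysed here. The methods name stranded libraries, Cutadapt, Hisat2 and DESeq2, whereas the submitters' processing notes name Trim Galore 0.4.1, STAR 2.7.0 and HTSeq 0.12.4. Which of them made which table, the annotation and the strand setting are not given in the sources used here. The deposited tables hold raw counts per gene, with GRCm39 coordinates for MEFs and GRCm38 for liver, and FPKM values computed by the authors. FPKM were compared only between genes of a tissue, and 6 further per-library columns were not used. In MEFs no other listed gene overlapped the 10 genes, and in liver the antisense genes over *Spry1* and *Spry4* had at most 26 counts.

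MEFs and liver were fitted separately in edgeR 4.0.16 (R 4.3.3), with TMM, filterByExpr, the quasi-likelihood test and Benjamini-Hochberg adjustment at 0.05 over the 13306 and 16080 genes left by the filter. Standard errors came from the fold change and its F value. The scripts were tested on simulated data. The 10 genes, the 5 pathway lists of 85 genes and the 8 marker lists were chosen with earlier results of these data known. Named were, per pathway list, the 2 largest rises and the 2 largest falls past the threshold in MEFs at a mean of 1 CPM or more in either genotype, each gene past the threshold within 1 Mb of *Dusp4*, and the 5 profiles nearest to *Dusp4* (prior count of 2). Same-numbered libraries deviated together in liver (correlations 0.71, 0.36 and 0.37), though replicates 2 and 3 correlated about as well across numbers (0.41 and 0.40), and not in MEFs (-0.01, -0.04 and -0.0035). Alternatives were DESeq2 1.42.0 by itself or only its size factors, TMM on autosomes alone, all genes kept, the replicate block, leaving out each library and, in liver, a term for replicate 1 or leaving out its libraries. Promoters were the 250 bases before RefSeq starts (GRCm38.p6). Figures used Python 3.11.15 and matplotlib 3.10.9.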

Additional observations from a re-analysis of the deposited data

How the results depend on the processing

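In MEFs all 10 genes stayed below 0 under all 11 alternatives. Between 7 and 10 of them passed an adjusted p of 0.05, against 8 in the main fit, with 7 by DESeq2 and 10 without WT replicate 1. Nothing is read from these counts, since this contrast chose the set. Over all genes 3956 to 6181 passed against 5202, and 24 to 36 of the pathway genes against 35. The median of all genes moved to -0.16 with DESeq2 and -0.12 without the filter. Leaving out 1 library gave 0 to 2 neighbours of *Dusp4* against 1. The replicate block gave 5006 calls in MEFs, where the numbers do not pair the libraries, and 8 against 6 in liver, where they were taken as pairs, and it changed no call of the 10 genes, while 31 against 35 pathway genes passed in MEFs, with *Map2k1* (adjusted p = 0.081), *Fgf1* (0.064), *Met* (0.0503) and *Fosl1* (0.057) lost.

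In liver the number of genes past the threshold was 80 with DESeq2, 3 with TMM over autosomal genes, 0 without the filter, 2 without both replicate 1 libraries, 3 with a term for replicate 1 and RepB-/- replicate 2 left out, and 0 to 4 with 1 library left out, against 6. Of the pathway genes 1 passed with DESeq2 against 0. No call of the 10 genes changed, so the liver signs rest on no call. *Spry1* (-0.05) turned to 0.0872 with the replicate block, 0.0682 with the term for replicate 1 and 0.22 without both replicate 1 libraries. Without both, *Spred1* turned to 0.0036 and *Etv5* to 0.30. With the term and without RepB-/- replicate 2, *Spred2* (0.0094) turned to -0.0272 and *Etv5* to 0.0442. With 1 library left out the log2 fold change ran from -0.90 to 1.85 for *Dusp5*, -1.09 to 0.0771 for *Dusp6*, -0.67 to 0.84 for *Spry1*, -0.65 to 1.11 for *Spry2*, -1.06 to 0.50 for *Spry4*, -0.30 to 0.18 for *Spred1*, -0.0755 to 0.17 for *Spred2* and -0.25 to 0.32 for *Etv5*. The cause was not tested. With 3 libraries per genotype and the spread seen in liver, the MEF log2 fold changes of 8 of the 9 tested genes, all but *Dusp4*, lay within their 95% intervals in liver. The liver intervals of all 9 also held 0, and the MEF values chose the set. No likeness or difference between tissues is therefore read from this count.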
